A study of Mus musculus with 20 samples.

Results

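The genes described here make, carry and use taurine, and they were chosen by gene symbol: Csad, Cdo1, Ado, Gadl1, Slc6a6, Slc6a13 and Baat, 7 of the 55401 genes in the count table. The set was drawn up because Csad transcripts were more abundant in Nsun6-deficient than in wild-type liver. The liver genotype values of the 7 genes are therefore given as a description. The liver call of Csad shows how the set was chosen and is not counted as a test of it. RNA was sequenced from 5 organs, namely heart, kidney, spleen, liver and small intestine, of wild-type (WT) mice and of mice lacking Nsun6 (KO), an enzyme that methylates cytosine in RNA. The KO line was made by injecting Cas9 and guide RNAs into C57BL/6J zygotes to delete exons 3 and 4 of Nsun6, KO animals were homozygous offspring of heterozygotes, and the mice were females aged 8 weeks. Each organ had 2 WT and 2 KO libraries, 20 in all, with 15897446 to 44508197 counted reads per library. The labels do not say whether libraries of different organs that carry the same number came from the same animal, so p-values measure the spread between these libraries, and at 2 per group the spread is poorly known.

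Taurine is an amino sulfonic acid that is abundant in muscle, brain, retina and liver. Cysteine dioxygenase, encoded by Cdo1, oxidises cysteine to cysteine sulfinic acid, and cysteine sulfinic acid decarboxylase, encoded by Csad, turns that into hypotaurine, which is then oxidised to taurine. Ado encodes a dioxygenase that reaches hypotaurine from cysteamine instead, and Gadl1 encodes a decarboxylase related to Csad. Slc6a6 encodes the main taurine transporter of the cell surface, Slc6a13 encodes a GABA transporter of liver and kidney that also carries taurine, and Baat encodes the liver enzyme that joins bile acids to taurine, the usual form of bile acids in mice.

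Levels are CPM, the counts scaled to a common library size after TMM scaling over the 20 libraries. Levels of different members or pathway genes are compared per kilobase of exon (RPKM). The most abundant gene of a marker or pathway list is named by its CPM, without scaling to exon length. A gene was called where the adjusted p of edgeR's quasi-likelihood test was under 0.1 and the fold change was above 2. Nsun6 itself did not check the labels, because reads from the exons outside the deletion are counted too: its KO mean was 0.641 of the WT mean in kidney, 0.712 in liver, 0.841 in heart, 0.932 in small intestine and 1.02 in spleen. The organ labels held: Alb, the serum albumin gene of hepatocytes, was at 152900 CPM or more in each liver library and at most 2685 CPM elsewhere, in spleen WT replicate 2. Umod (kidney tubule) was at 901 CPM or more in kidney and at most 1.34 elsewhere, Vil1 (enterocyte brush border) at 1377 or more in small intestine and at most 96.0 elsewhere, Myh6 (heart muscle myosin) at 8711 or more in heart and at most 40.3 elsewhere, and Cd79a (B cell receptor) at 277 or more in spleen and at most 33.1 elsewhere. Some libraries stood apart from the others of their organ. Small intestine replicates 1 of both genotypes carried ileal transcripts, with the bile acid binding protein gene Fabp6 at 6810 CPM in WT and 6261 CPM in KO, while replicates 2 had Fabp6 at 0.238 and 0.413 CPM and the duodenal transcription factor gene Pdx1 at 93.3 and 65.2 CPM, against 0 in replicates 1. Spleen WT replicate 2 carried liver transcripts, and heart WT replicate 2 carried fat and B cell transcripts. Liver WT replicate 1 was low in the summed hepatocyte markers, though not in each hepatocyte gene, and carried heart muscle transcripts. Small intestine KO replicate 1 carried heart muscle transcripts, and both KO libraries of that organ held more smooth muscle transcripts than both WT libraries. Kidney WT replicate 2 was low in several transporter genes, and kidney KO replicate 2 in fat transcripts. The values are given beside the results they touch, and for the kidney fat markers these are the list counts and median only.

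Csad (ENSMUSG00000023044; chromosome 15, 102176999 to 102204724 on the minus strand, GRCm38) was counted over 3831 exon bases. In liver its level was 29.9 and 27.6 CPM in the WT libraries and 91.9 and 84.8 CPM in the KO libraries, from 757, 521, 1895 and 2305 reads. The genotypes did not overlap, and the KO mean of 88.4 CPM was 3.07 times the WT mean of 28.8 CPM. The fitted log2 fold change was 1.62 (SE 0.18), and Csad was among the 8 genes called in liver, 0.0509% of the 15729 tested, which is how it came to be chosen. That call was absent when liver KO replicate 1 or liver KO replicate 2 was left out, with log2 fold changes of 1.53 (SE 0.28) and 1.69 (SE 0.27), and when all 20 libraries shared the estimate of spread, with 1.62 (SE 0.28).

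Outside the liver the Csad genotypes differed little. In kidney, where the decarboxylase was most abundant, the WT libraries held 77.6 and 58.0 CPM and the KO libraries 78.8 and 75.2 CPM. In spleen the WT libraries held 18.3 and 19.01 CPM and the KO libraries 17.3 and 15.0 CPM, both KO values below both WT values. In heart the values were 16.5 and 19.6 CPM in WT and 11.3 and 17.2 CPM in KO, and in small intestine 9.01 and 6.03 CPM in WT and 9.83 and 8.46 CPM in KO, with overlapping genotypes in both organs. The edgeR log2 fold changes were 0.15 (SE 0.30) in kidney, -0.18 (SE 0.18) in spleen, -0.36 (SE 0.32) in heart and 0.24 (SE 0.43) in small intestine. With 1 library left out they ran from -0.036 to 0.40 in kidney and from -0.034 to 0.56 in small intestine. In spleen they ran from -0.29 to -0.096, and in heart from -0.70 to -0.069. Over the 16 libraries of these 4 organs, fitted with a term for organ, the shared genotype effect on Csad was -0.03 (SE 0.15) on the log2 scale, with an edgeR adjusted p of 0.9998.

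How the KO livers compared with the kidney in Csad depended on the scaling. Per kilobase of exon it stood at 23.1 ± 1.3 RPKM (SD, n = 2) in KO liver, 7.51 ± 0.42 RPKM in WT liver, 17.7 ± 3.6 RPKM in WT kidney and 20.1 ± 0.7 RPKM in KO kidney, after TMM scaling. By library totals alone the KO livers stood at 58.5 and 51.8 CPM, below the kidney mean of 83.2 ± 20.2 CPM (SD, n = 4), though kidney WT replicate 2 lay between them at 55.35 CPM. Among WT libraries alone the order of Csad levels after TMM scaling was kidney, liver, heart and spleen, and small intestine. By library totals both WT spleens (27.6 and 29.1 CPM) lay above both WT livers (23.02 and 16.7 CPM). Kidney exceeded liver by 2.36-fold (log2 difference 1.24, SE 0.27, edgeR adjusted p = 0.00417). Liver against spleen (1.54-fold, adjusted p = 0.0790) and liver against heart (1.59-fold, adjusted p = 0.0699) stayed below the fold threshold, and spleen and heart differed by 1.03-fold (adjusted p = 0.927). Small intestine was below spleen by 2.48-fold (adjusted p = 0.00237) and below heart by 2.40-fold (adjusted p = 0.00215).

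Csad shares 278 exon bases with Zfp740, a zinc finger gene on the opposite strand, 7.26% of the exon bases of Csad. The count command in the file header names no strand option while the study's methods name one, so it is not settled whether reads from these bases were counted by strand. Zfp740 stood at 43.3 and 30.8 CPM in the WT livers and at 45.3 and 40.9 CPM in the KO livers, with overlapping genotypes.

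The RefSeq table used here holds 7 promoter windows of 300 bases, from 250 before to 50 after a start site, for 4 of the genes: Csad, Ado, Gadl1 and Slc6a13. CG dinucleotides are printed in capitals. The windows shown are those of Csad, the gene that differed in the liver, of Ado, the most evenly expressed member, and of Slc6a13, the gene with the steepest organ difference among those with a window. The first Csad window is chr15:102205003-102205302 on the minus strand (GRCm38.p6), with its start site 328 bases upstream of the first counted exon base. The second is chr15:102188994-102189293, with its start site inside the gene, 15681 bases downstream of that base. The Ado window is chr10:67548906-67549205 on the minus strand, and the Slc6a13 window chr6:121300038-121300337 on the plus strand. The last is the nearest to the first counted base of the 3 Slc6a13 windows, and the other two and the Gadl1 window are not printed.
Csad window 1: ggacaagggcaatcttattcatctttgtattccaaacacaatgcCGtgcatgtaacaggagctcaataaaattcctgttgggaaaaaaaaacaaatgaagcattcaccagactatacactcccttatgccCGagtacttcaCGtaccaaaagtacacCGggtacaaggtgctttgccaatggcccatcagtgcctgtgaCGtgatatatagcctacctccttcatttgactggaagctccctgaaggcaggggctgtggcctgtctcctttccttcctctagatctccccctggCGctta
Csad window 2: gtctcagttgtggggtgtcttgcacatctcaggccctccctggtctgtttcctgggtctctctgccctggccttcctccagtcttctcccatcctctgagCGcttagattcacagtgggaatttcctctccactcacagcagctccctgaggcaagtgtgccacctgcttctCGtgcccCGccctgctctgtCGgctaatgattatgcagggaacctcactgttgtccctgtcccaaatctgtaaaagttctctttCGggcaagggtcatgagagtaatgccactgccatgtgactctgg
Ado: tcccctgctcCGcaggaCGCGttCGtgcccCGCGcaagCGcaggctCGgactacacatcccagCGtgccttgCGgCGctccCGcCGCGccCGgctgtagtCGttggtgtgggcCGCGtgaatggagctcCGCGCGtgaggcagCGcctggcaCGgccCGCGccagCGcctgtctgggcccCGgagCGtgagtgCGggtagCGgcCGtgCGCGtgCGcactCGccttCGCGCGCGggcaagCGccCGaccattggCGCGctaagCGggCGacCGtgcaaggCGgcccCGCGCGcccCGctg
Slc6a13: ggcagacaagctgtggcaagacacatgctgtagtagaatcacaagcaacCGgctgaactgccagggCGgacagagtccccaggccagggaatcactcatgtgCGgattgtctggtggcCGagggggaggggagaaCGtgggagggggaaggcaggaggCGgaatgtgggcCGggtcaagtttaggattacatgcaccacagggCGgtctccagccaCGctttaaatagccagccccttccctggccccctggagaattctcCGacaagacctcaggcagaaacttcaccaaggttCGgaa

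The Ado window held 51 CG dinucleotides, a number reached by 0.716% of the 32817 promoter windows in the RefSeq table. The Csad windows held 6 and 5, reached by 56.4% and 61.9% of windows, and the printed Slc6a13 window held 11, reached by 41.4%. Of the motifs searched on both strands, CCAAT (the CCAAT box) was found in the first Csad window, in the Ado window and in both unprinted Slc6a13 windows, and in 37.4% of all windows. GGGCGG (the GC box) was found in the second Csad window and in the printed Slc6a13 window, and in 35.6% of all windows. TATAAA (the TATA box) was found in none of the 7 windows and in 13.6% of all windows. The nuclear receptor half-site AGGTCA was found in 1 unprinted Slc6a13 window and in the Gadl1 window, in none of the 4 printed windows, and in 16.3% of all windows. The STAT site, searched as TTCNNNGAA, was found in none of the 7 windows and in 8.29% of all windows.

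Cdo1 (ENSMUSG00000033022), the first step from cysteine, was the most abundant member in liver, with 3241 and 3082 CPM in WT and 2893 and 3042 CPM in KO. Both KO values lay just below both WT values, and the log2 difference was -0.09 (SE 0.26). Per kilobase of exon, WT liver held 1924 ± 69 RPKM of Cdo1 (SD, n = 2) against 7.51 ± 0.42 RPKM of Csad, the next enzyme of the route. Kidney held 119 and 242 CPM in WT and 126 and 145 CPM in KO, and the other organs at most 49.9 CPM per library. The log2 difference in kidney was -0.43 (SE 0.42), and it was 0.17 without kidney WT replicate 2. Of 9 fat cell markers tested in kidney 8 were below 0 and 1 above, with a median of -1.16 and 0 called. Their part in the kidney values of Cdo1 was not tested.

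In heart, Cdo1 and several fat cell genes were highest in WT replicate 2. It stood at 3.98 and 49.9 CPM in the WT libraries and at 2.92 and 12.5 CPM in the KO libraries, and the replicate 2 library was the higher in both genotypes. Adipoq, the adiponectin gene of fat cells, was at 0.560 and 45.4 CPM in WT and 1.57 and 12.5 CPM in KO, highest in the library where Cdo1 was highest, and the adipsin gene Cfd was at 0.746 and 125 CPM in WT and 3.45 and 47.2 CPM in KO. Of the 10 fat cell markers, 9, 10, 9 and 10 had reads in WT 1, WT 2, KO 1 and KO 2, and the leptin gene Lep was at 0 in both replicates 1. Their summed level was 7101, 6939, 8182 and 8406 CPM, nearly all of it Lpl, which heart muscle also expresses. The genotype difference of Cdo1 in heart was -1.80 (SE 1.08) on the log2 scale, and without heart WT replicate 2 it was 0.96 (SE 0.75). Other genes also peaked in WT replicate 2. The B cell marker Ms4a1 was at 0.249, 9.95, 0.600 and 0.853 CPM in WT 1, WT 2, KO 1 and KO 2. The 5 B cell markers were all below 0 (median -2.81), with none called. The heart muscle marker Myl7 was at 192, 411.5, 4.12 and 115 CPM. Plin4, a fat cell marker, was at 401 CPM in KO 2 against 342 CPM in WT 2. The part of fat and of these other transcripts in the Cdo1 difference was not tested.

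**Figure D1:**
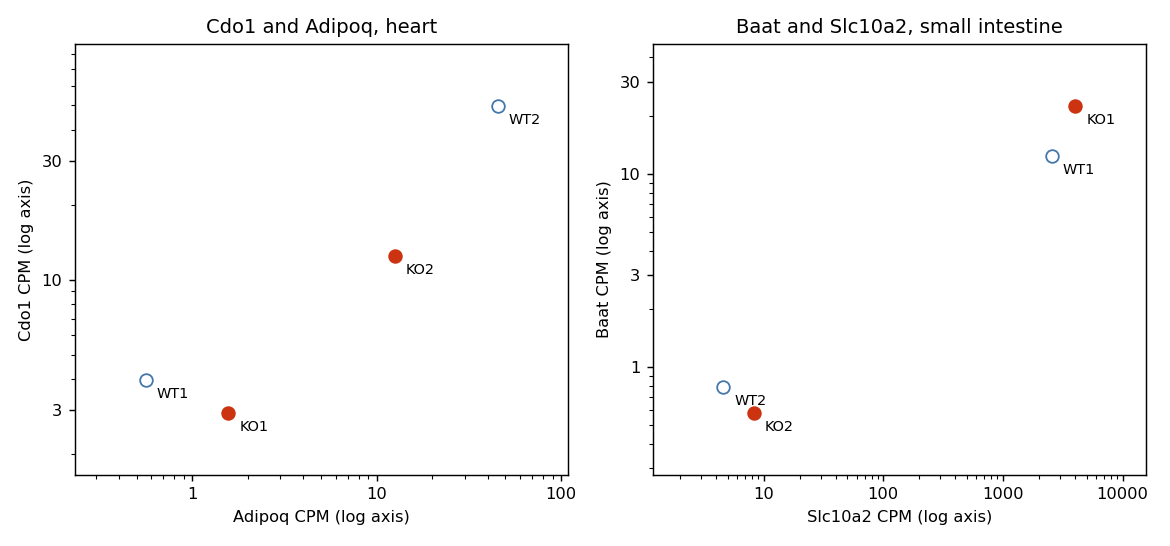
Left: Cdo1 against Adipoq in the 4 heart libraries. Right: Baat against Slc10a2, the ileal bile acid transporter gene, in the 4 small intestine libraries. Both axes are CPM on log scales, open points are WT and filled points KO. Heart WT2 holds the highest value of both genes, and both replicates 1 of the small intestine stand above both replicates 2.

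Ado (ENSMUSG00000057134; chromosome 10, 67544511 to 67549068, minus strand, a single exon of 4558 bases) varied least between organs. Its organ means over 4 libraries ran from 18.5 ± 1.5 CPM (SD) in small intestine to 32.8 ± 3.7 CPM in liver, and 0 of the 10 organ pairs passed the call. Small intestine lay below liver by 1.76-fold with an edgeR adjusted p of 0.00121, which is under the fold threshold. The order depends on the scaling: by library totals alone, spleen was highest at 39.2 ± 2.3 CPM and liver stood at 21.7 ± 4.7 CPM. The liver libraries held 36.9 and 34.7 CPM in WT and 31.1 and 28.5 CPM in KO, a log2 difference of -0.27 (SE 0.19). In the 4 other organs the genotype differences of Ado lay between -0.14 (SE 0.34) in kidney and -0.05 (SE 0.16) in spleen. With 1 library left out the sign could turn, with values up to 0.098 in kidney, 0.16 in heart and 0.008 in small intestine, while spleen stayed below 0.

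Gadl1 (ENSMUSG00000056880; chromosome 9, 115909455 to 116076176, plus strand) had 9 reads in the 20 libraries together. Heart WT held 4 and 2 of them, heart KO 0 and 1, and kidney KO replicate 2 held 2. The remaining libraries had none, and 3 reads would stand for 0.0575 to 0.225 CPM depending on the library. Gadl1 passed the filter on low counts in no organ, and no difference was detectable at this depth. Csad was therefore the only decarboxylase of this pair with more than 4 reads in any library.

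Slc6a6 (ENSMUSG00000030096; chromosome 6, 91684053 to 91759066, plus strand), the taurine transporter, was present in each organ. Its mean over 4 libraries was 163 ± 59 CPM in kidney, 129 ± 21 CPM in small intestine, 93.5 ± 28.0 CPM in heart, 77.1 ± 8.0 CPM in liver and 51.1 ± 7.9 CPM in spleen (SD). No pair of neighbours in this order was called, and by library totals alone spleen (76.6 ± 12.6 CPM) stood above liver (50.6 ± 8.4 CPM). Of the 10 organ pairs 3 were called: kidney above spleen by 3.19-fold (edgeR adjusted p = 0.000167), small intestine above spleen by 2.54-fold (adjusted p = 0.00104) and kidney above liver by 2.11-fold (adjusted p = 0.00642). By library totals alone small intestine against spleen was no longer called (1.65-fold, adjusted p = 0.0803), while small intestine against liver (2.48-fold, adjusted p = 0.00531) and kidney against heart (2.19-fold, adjusted p = 0.0157) were. The background of called genes in the 3 pairs was 50.5%, 49.5% and 34.7%.

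In kidney Slc6a6 was at 218 and 78.3 CPM in WT and at 178 and 178 CPM in KO, so that kidney WT replicate 2 alone was low. The same library was low in the sodium phosphate transporter gene Slc34a1, at 518 CPM against 4200, 2740 and 1521 CPM in WT 1, KO 1 and KO 2, in the sodium chloride cotransporter gene Slc12a3, at 225 against 3630, 1742 and 1645 CPM, and in Zfp740, at 18.9 against 91.9, 61.3 and 49.97 CPM. The proximal tubule marker Lrp2 was not low there, at 2508 CPM against 1371, 2257 and 2634 CPM. The genotype difference of Slc6a6 in kidney was 0.22 (SE 0.54) on the log2 scale. Without kidney WT replicate 1 it was 1.18, and without kidney WT replicate 2 it was -0.32. With 1 WT library left, such a fit takes its spread from the 2 KO libraries and assumes that the lone WT library varies alike, so no p-value is given for it. What sets kidney WT replicate 2 apart was not tested.

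In the other organs no Slc6a6 difference was called. Small intestine held 113 and 142 CPM in WT and 152 and 109.7 CPM in KO. Liver held 78.4 and 65.7 CPM in WT and 80.5 and 84.0 CPM in KO, both KO values above both WT values, with a log2 difference of 0.19 (SE 0.18). Spleen held 62.5 and 50.6 CPM in WT and 45.4 and 46.0 CPM in KO (-0.26, SE 0.16), and heart 92.8 and 68.1 CPM in WT and 80.3 and 133 CPM in KO (0.39, SE 0.32, and -0.02 without heart KO replicate 2).

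Slc6a13 (ENSMUSG00000030108; chromosome 6, 121300227 to 121337733, plus strand) was a gene of liver and kidney. Liver held 211 and 219 CPM in WT and 235 and 310.2 CPM in KO, and kidney held 71.0 and 94.2 CPM in WT and 114 and 116 CPM in KO. Spleen libraries held 1.303 to 4.54 CPM, heart libraries 0.249 to 0.600 CPM, and the small intestine 3 and 10 reads in WT and none in KO. It was called in 10 of 10 organ pairs, with liver above kidney by 2.48-fold (log2 difference 1.31, SE 0.35, edgeR adjusted p = 0.00850). By library totals alone liver against kidney was 1.44-fold (adjusted p = 0.210) and not called, which left 9 pairs, and among WT libraries small intestine against heart was not called (1.23-fold, adjusted p = 0.782). Both KO values exceeded both WT values in liver, in kidney and in heart, with log2 differences of 0.34 (SE 0.21), 0.45 (SE 0.29) and 0.82 (SE 0.89), and the last rests on less than 1 CPM.

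Baat (ENSMUSG00000039653; chromosome 4, 49489422 to 49506557, minus strand), which conjugates bile acids, was a liver gene. The WT livers held 531 and 543 CPM and the KO livers 581 and 639.5 CPM, a log2 difference of 0.18 (SE 0.21), both KO values above both WT values. The liver mean was 37.3 times that of kidney, the next organ (edgeR adjusted p = 0.00395 for the pair). Kidney held 18 and 19.3 CPM in WT and 12.4 and 11.8 CPM in KO, with non-overlapping genotypes and a log2 difference of -0.65 (SE 0.35, edgeR adjusted p = 0.9999).

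In small intestine Baat was higher in the ileal libraries, the replicates 1 of both genotypes. Replicate 1 held 12.3 CPM in WT and 22.6 CPM in KO, and replicate 2 held 0.794 and 0.577 CPM. The ileal transporter gene Slc10a2 was at 2563 and 4037 CPM in replicates 1 and at 4.602 and 8.25 CPM in replicates 2. Cdo1 was likewise higher in replicates 1, at 27.2 and 15.5 CPM against 5.59 and 7.47 CPM, as was Adipoq, at 12.7 and 8.92 CPM against 0.0794 and 0. Of the 10 fat cell markers 10 had reads in each replicate 1, and 8 and 7 in replicates 2, with summed levels of 157, 233, 169.8 and 256 CPM in WT 1, WT 2, KO 1 and KO 2. The most abundant gene of that sum was Cidec in both replicates 2, at 166 and 163 CPM. Within replicate 1 the log2 ratio of KO to WT, with 1 CPM added to each value, was 0.82 for Baat and -0.77 for Cdo1, and within replicate 2 it was -0.19 and 0.36. Markers of other cell types also differed between these libraries, with none called between genotypes. The 6 smooth muscle markers summed to 284.5, 448, 2454 and 1370.0 CPM in WT 1, WT 2, KO 1 and KO 2. Each was higher in KO (median 2.27) with an unadjusted edgeR p under 0.05, beside 2.39% of all genes tested. The 9 heart muscle markers summed to 17.5, 27.1, 448 and 35.4 CPM, so that KO replicate 1 stood apart, with Myl2 its most abundant marker at 170.0 CPM and Myh6 at 40.3 CPM. The 6 markers of fibroblasts and endothelium were each higher in KO (median 1.04), with sums of 248, 139, 355.5 and 248 CPM and Dcn the most abundant. The 5 B cell markers summed to 326, 8.81, 1.49 and 54.5 CPM, with Cd79a at 0 in KO 1 and a median of -2.81. The part of segment, fat and these cell types in the Baat and Cdo1 values was not tested.

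In spleen 3 liver genes of the set were high in WT replicate 2. Cdo1 was at 5.14 and 27.8 CPM in WT and 8.96 and 8.50 CPM in KO, Baat at 0.0575 and 6.95 CPM in WT and 0.455 and 0.847 CPM in KO, and Slc6a13 at 1.303 and 4.54 CPM in WT and 2.09 and 1.60 CPM in KO. Relative to WT liver, spleen WT replicate 2 held 0.880% of Cdo1, 1.29% of Baat and 2.11% of Slc6a13, and between 1.01% and 2.71% of the 12 hepatocyte markers, with a median of 1.54%. In the other libraries the median of the markers was 0.00545% in WT replicate 1, 0.0531% in KO replicate 1 and 0.0738% in KO replicate 2. The markers summed to 126, 3976, 287 and 321 CPM in WT 1, WT 2, KO 1 and KO 2, with Ambp at 0 in WT 1. By CPM, without scaling to exon length, Alb was highest in WT 2 and the transferrin gene Trf in WT 1 and KO 1. In KO 2 Alb was at 136 CPM and Trf at 130 CPM. The fitted differences were -0.90 (SE 1.01) for Cdo1, -2.40 (SE 2.40) for Baat and -0.64 (SE 0.61) for Slc6a13. Without spleen WT replicate 2 they were 0.83, 3.51 and 0.57. Without spleen WT replicate 1 Cdo1 was at -1.67 and Baat at -3.40, again in a fit with 1 WT library left.

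Most fat cell markers had higher levels in the KO spleens, with none called. Adipoq was at 4.48 and 0.679 CPM in WT and 9.35 and 9.46 CPM in KO, and 8 of the 10 fat cell markers had a positive log2 difference (median 1.22), 3 of them with an unadjusted edgeR p under 0.05, beside 5.14% of genes. The 10 had reads in each spleen library and summed to 82.8, 62.7, 111 and 89.6 CPM in WT 1, WT 2, KO 1 and KO 2, with Lpl the most abundant. Their part in the Cdo1 values was not tested.

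The spleens also differed in red cell genes. Of 7 erythroid markers 4 were called higher in KO, beside 0.223% of all genes called in spleen, among them Slc4a1, Alas2 and Epb42, with log2 differences of 1.57 (SE 0.16), 1.34 (SE 0.18) and 1.67 (SE 0.18) and edgeR adjusted p of 0.0656, 0.0839 and 0.0656. The 7 markers summed to 9573, 13040, 22000 and 24350 CPM in WT 1, WT 2, KO 1 and KO 2, with the globin gene Hbb-bs the most abundant and none at 0. Csad, Ado and Slc6a6 were each lower in both KO than in both WT spleens, and the part of the red cell transcripts in this was not tested.

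**Figure D2:**
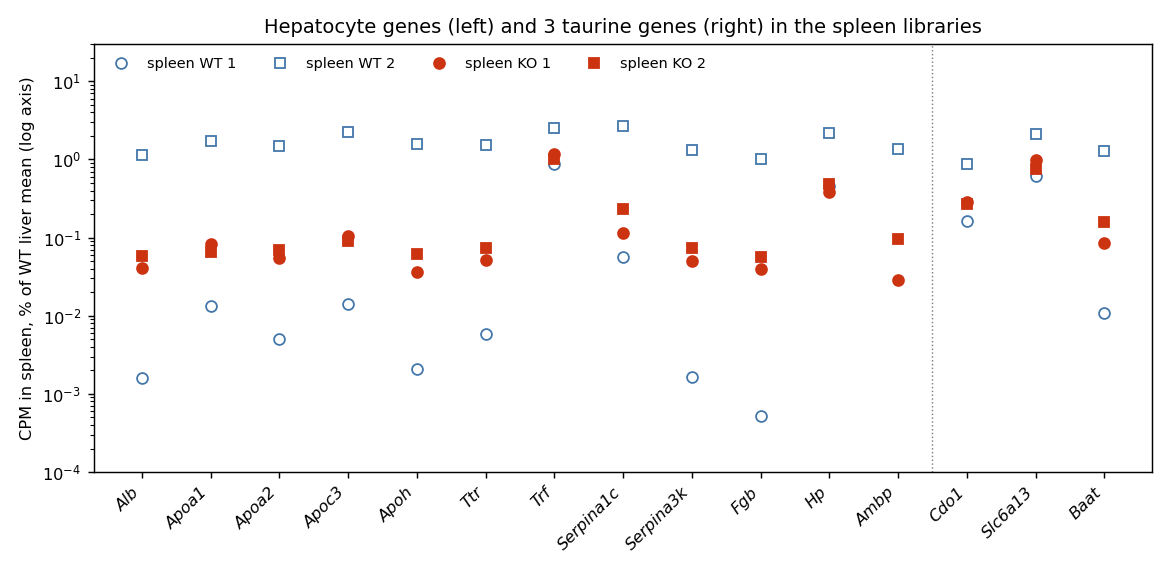
Level of 12 hepatocyte markers and of Cdo1, Slc6a13 and Baat in each spleen library, as a percent of the WT liver mean, on a log axis (open, WT; filled, KO; circles, replicate 1; squares, replicate 2). Spleen WT 2 holds the highest share of each gene, between 0.880% and 2.71%; a value of 0 is not drawn.

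**Figure D3:**
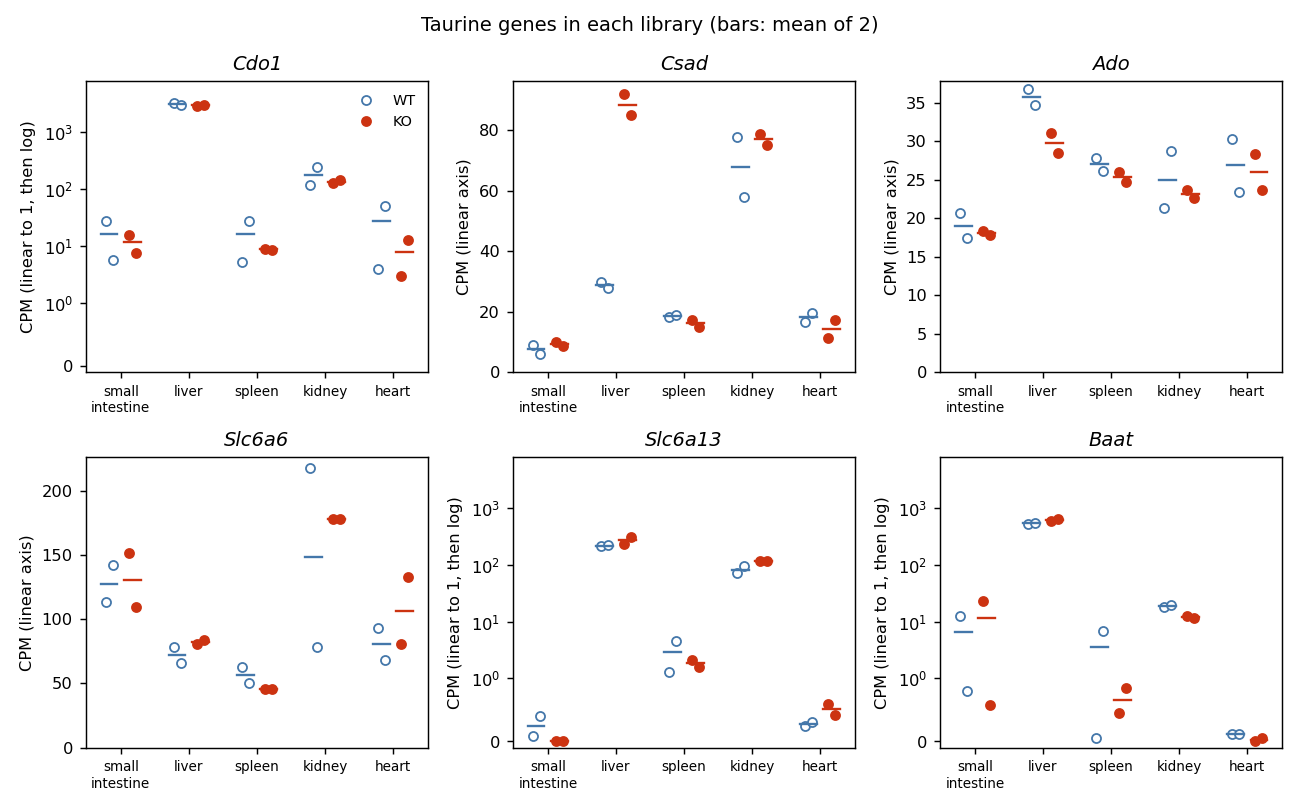
CPM of 6 members in the 20 libraries, with WT as open blue and KO as filled red points and bars at the mean of 2; the axes of Cdo1, Slc6a13 and Baat are linear up to 1 CPM and logarithmic above. The 2 KO liver points of Csad, at 84.8 and 91.9 CPM, lie beside the kidney points under this TMM scaling, and Gadl1, with 9 reads in all, is not drawn.

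The genes were chosen on the liver contrast and not on the genotype contrasts of the 4 other organs, although earlier results of these data were known and organs may share animals. No member was called in those 4 organs. In small intestine 5 members passed the filter on low counts, 0 were called by edgeR or DESeq2 and 0 had an unadjusted edgeR p under 0.05, with 0%, 0.345% and 2.39% of all tested genes doing so. In spleen the same held for 6 members, against 0.223%, 1.16% and 5.14% of genes. In kidney it held for 6 members, against 0%, 0% and 0.638%, and in heart for 5 members, against 0%, 0.012% and 0.703%. The genotypes did not overlap for 0 of 5 members in small intestine, 3 of 6 in spleen (Csad, Ado and Slc6a6), 2 of 6 in kidney (Slc6a13 and Baat) and 1 of 5 in heart (Slc6a13). Among all tested genes the share without overlap was 25.1%, 31.5%, 21% and 17.2%. In liver, the comparison behind the choice of the set, the 6 members tested did not overlap, beside a share of 33.3% of genes.

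The effect shared by the 4 organs other than the liver was called for 0 of 6 members by edgeR, and 0 had an unadjusted p under 0.05, beside 0% and 1.78% of 22649 genes; DESeq2 called 0 members and 0.00883% of genes. The estimates were 0.09 (SE 0.20) for Slc6a6, -0.09 (SE 0.11) for Ado, -0.20 (SE 0.43) for Slc6a13, -0.79 (SE 0.92) for Baat and -0.91 (SE 0.52) for Cdo1. With 1 library left out Slc6a6 ran from -0.025 to 0.205, and it was below 0 without kidney WT replicate 2 or heart KO replicate 2. Without spleen WT replicate 2, the library with liver transcripts, Baat was at 0.28 (SE 0.81) and Slc6a13 at 0.13 (SE 0.43), and without heart WT replicate 2, the library with fat transcripts, Cdo1 was at -0.38 (SE 0.47). A genotype effect that differed between these organs was called for 0 of 6 members by edgeR and by DESeq2, beside 0% and 0.344% of genes. Slc6a13 had an unadjusted edgeR p of 0.0166, a level reached under 0.05 by 2.28% of genes, with an adjusted p of 1.

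**Figure D4:**
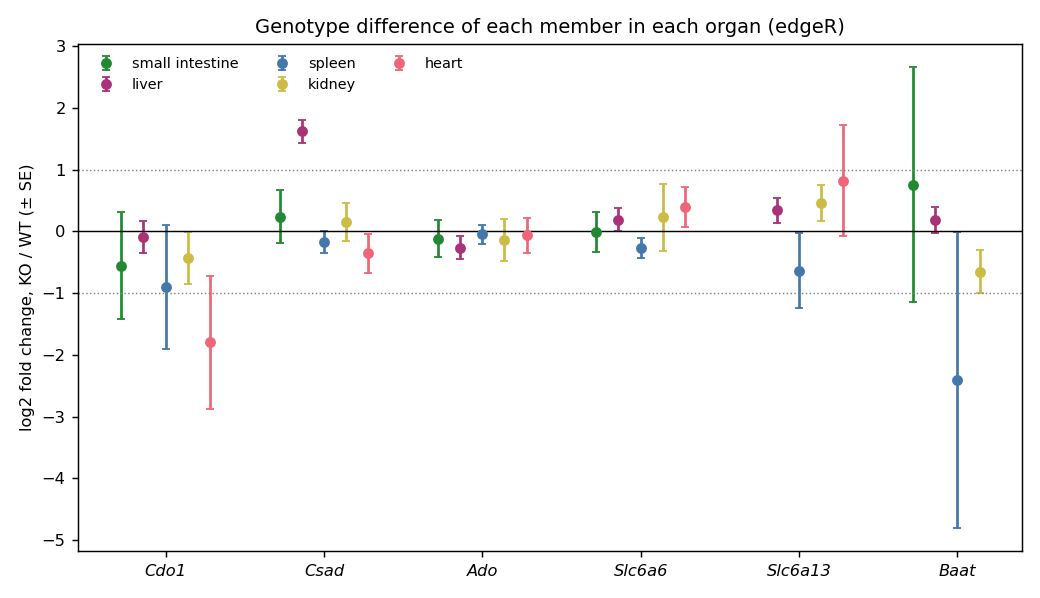
Log2 fold change of KO against WT for 6 members in each organ, with the standard error of the edgeR fit as bars; dotted lines mark a fold change of 2. Csad in liver, at 1.62, is the 1 value whose bar lies wholly beyond a dotted line and that was called, and the gene was chosen on that contrast. The bars of Cdo1 and Baat outside the liver are long.

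Across organs, after TMM scaling, the means of Cdo1, Slc6a13 and Baat were highest in liver and next in kidney. Their highest organ mean was 243 times the lowest or more. For Csad, Ado and Slc6a6 it was 8.69 times the lowest or less. Cdo1 was called in 7 of 10 organ pairs, each that involved liver or kidney, while no pair among small intestine, spleen and heart was called for it, with log2 differences from -0.28 to 0.20. Liver exceeded kidney by 19.6-fold (log2 difference 4.29, SE 0.82, edgeR adjusted p = 0.000939). The liver mean of Csad in these fits includes the KO livers on which the gene was chosen, so its pairs are read from the WT libraries given above. Those called 7 pairs as well, without liver against spleen, liver against heart and spleen against heart. Baat was called in 9 pairs, with small intestine and kidney the exception (1.72-fold, adjusted p = 0.570). The share of all 23159 genes called was 46.3% for small intestine and liver, 49.5% for small intestine and spleen, 45.7% for small intestine and kidney, 53.5% for small intestine and heart, 52.2% for liver and spleen, 34.7% for liver and kidney, 44.5% for liver and heart, 50.5% for spleen and kidney, 52.6% for spleen and heart and 38% for kidney and heart. In these fits the median gene was 0.24 lower in liver than in spleen, 0.19 higher in small intestine than in liver, 0.14 higher in spleen than in heart and 0.10 lower in small intestine than in spleen on the log2 scale. By library totals without TMM scaling, Baat in small intestine and spleen was no longer called (3.98-fold, adjusted p = 0.140), which left 8 pairs.

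The balance of the set differed by organ when levels were taken per kilobase. In WT liver the order was Cdo1 at 1924 RPKM, Baat at 277, Slc6a13 at 74.0, Slc6a6 at 8.51, Ado at 7.85 and Csad at 7.51. The last 3 differed by less than 1 standard deviation of Slc6a6, which was 1.06 RPKM. In WT kidney the order was Cdo1 at 109.8 ± 53.1 RPKM, Slc6a13 at 28.4 ± 5.6, Csad at 17.7 ± 3.6, Slc6a6 at 17.5 ± 11.7, Baat at 9.61 ± 0.47 and Ado at 5.49 ± 1.15. In WT heart Slc6a6 stood at 9.51 ± 2.06 RPKM, Ado at 5.89 ± 1.06 and Csad at 4.71 ± 0.58, and in WT small intestine Slc6a6 at 15.1 ± 2.4, Ado at 4.18 ± 0.50 and Csad at 1.96 ± 0.55 RPKM (SD, n = 2).

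The remaining pathway genes come from 7 lists that cover the supply of cysteine, its other fates, hypotaurine oxidation and taurine use, related decarboxylases, other carriers and channels, osmotic response and bile acid handling. They held 48 genes, chosen with earlier results of these data known. In small intestine 40 were tested, 0 were called by edgeR or DESeq2 and 1 had an unadjusted edgeR p under 0.05. The same counts were 44, 0 and 3 in spleen, 42, 0 and 1 in kidney, and 34, 0 and 0 in heart. The share of all genes with an unadjusted p under 0.05 was 2.39%, 5.14%, 0.638% and 0.703% in these organs. Their median log2 difference was 0.14 in small intestine, -0.20 in spleen, 0.098 in kidney and 0.060 in heart, beside 0.0037, 0.0072, -0.026 and -0.0090 for all genes. In spleen WT replicate 2, the library with liver transcripts, Mat1a was at 43.5 CPM against 0.0766, 1.61 and 2.92 CPM in WT 1, KO 1 and KO 2, and 0 of 8 bile acid genes were above 0 in spleen, with a median of -1.53. The other fates of cysteine went the other way there, with 7 of 9 genes above 0 and a median of 0.355, and the part of liver transcripts in the spleen median was not tested. In liver 43 were tested, with 25 above 0 and 18 below, and 1 was called higher, beside 0.0509% of all genes. That gene was Acnat2, which encodes a peroxisomal acyltransferase that joins fatty acids to taurine. It was at 83.8 and 87.7 CPM in WT and at 259.6 and 284 CPM in KO, a log2 difference of 1.66 (SE 0.19), beside 1.62 for Csad. Its neighbour Acnat1 was at 44.5 and 38.0 CPM in WT and 41.3 and 75.9 CPM in KO, and the levels of these similar genes may share reads. Pter, which encodes an N-acetyltaurine hydrolase, was at 186 and 169 CPM in WT and 258 and 395 CPM in KO, a log2 difference of 0.87 (SE 0.23), without a call. The list of hypotaurine oxidation and taurine use had 6 of 7 genes above 0 with a median of 0.37, the supply of cysteine had 2 of 7 above 0 with a median of -0.15, and the median of all genes tested in liver was 0.0048. The 12 hepatocyte markers had a median of 0.36 in the same comparison, with 11 above 0, and their part in the list values was not tested.

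Of the cysteine supply genes, Mat1a, the liver methionine adenosyltransferase, was at 4847 CPM in WT and 4136 CPM in KO liver, and per kilobase its liver mean was 1295 RPKM against 630.0 RPKM for Bhmt, the homocysteine methyltransferase gene. Cbs, which joins homocysteine to serine, was at 219 and 235 CPM in WT and 299 and 496 CPM in KO, a log2 difference of 0.80 (SE 0.25). Among the other fates, Got1, which transaminates cysteine sulfinic acid and was highest in heart at 718 ± 130 CPM (SD, n = 4), was at 409 and 381 CPM in WT and 268 and 309 CPM in KO (-0.46, SE 0.20). Gclc, the catalytic subunit of the first step to glutathione, was at 241 and 257 CPM in WT and 268 and 382 CPM in KO (0.38, SE 0.22). None of these was called, and none reached a fold change of 2.

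Hypotaurine oxidation and bile acid genes had their own organ patterns. Fmo1, a flavin monooxygenase that oxidises hypotaurine, was highest in kidney at 927 ± 324 CPM (SD, n = 4) and next in liver at 467 CPM. Slc27a5, which activates bile acids before Baat acts, was at 850.5 ± 78.7 CPM in liver and at a mean of at most 2.45 CPM elsewhere. Cyp7a1, the rate-limiting enzyme of bile acid synthesis, was at 704 and 599 CPM in WT liver and 468 and 466 CPM in KO liver, a log2 difference of -0.48 (SE 0.21) without a call. The osmotic response gene Slc5a3, a myo-inositol transporter gene, was at 519 ± 77 CPM in kidney, and Nfat5, the transcription factor of that response, was highest in small intestine at 221 ± 75 CPM. Among other carriers Slc6a12, the betaine transporter gene, was highest in liver at 80.0 ± 11.6 CPM, and among the volume-regulated channel subunits Lrrc8b was highest in small intestine at 129 ± 36 CPM. Of the related decarboxylases Ddc, which makes dopamine and serotonin, was highest in small intestine at 176 ± 146 CPM.

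**Figure D5:**
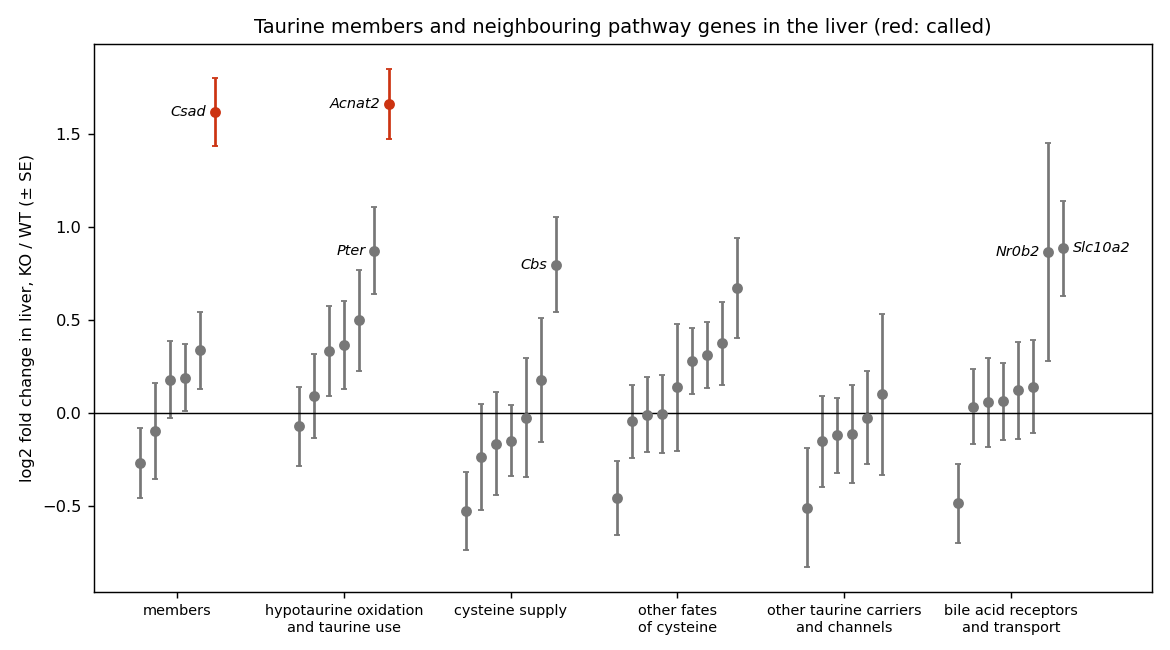
Log2 fold change of KO against WT in liver, with standard errors, for the members and for 5 lists of neighbouring pathway genes; red points were called, and the genes farthest above 0 are named. Csad at 1.62 and Acnat2 at 1.66 stand above the other genes, which lie between -0.52 and 0.89.

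Other groups of liver transcripts were compared in the same way. Of 12 genes with higher levels in female than in male mouse liver, 5 were called higher in KO and 0 lower, beside 0.0509% of genes called and a list median of 1.11 on the log2 scale. A1bg stood at 21.1 and 25.9 CPM in WT and 293 and 319.7 CPM in KO (3.70, SE 0.22), Sult3a1, a sulfotransferase gene, at 176 and 158 CPM against 880.5 and 888 CPM (2.40, SE 0.22), and the transcription factor gene Cux2 at 19.4 and 23.3 CPM against 56.4 and 72.8 CPM (1.59, SE 0.21). Sult3a2, at 2.65 and 1.17 CPM against 41.4 and 41.1 CPM (4.401, SE 0.35), and Cyp3a41a, at 204 and 184 CPM against 764 and 652 CPM (1.86, SE 0.22), made up the 5. Sult1e1 of the same list was lower, at 2.37 and 3.08 CPM in WT and 0.679 and 0.699 CPM in KO, without a call. Of 10 male-biased genes 0 were called; Cyp2d9, at 32.4 and 162 CPM in WT and 30.03 and 45.6 CPM in KO, and Slco1a1, at 126 and 911 CPM in WT and 669 and 813 CPM in KO, differed more between the WT libraries than between genotypes. Periportal and pericentral hepatocyte genes held 0 calls, and the pericentral gene Cyp1a2 was at 551 and 564 CPM in WT and 272 and 252 CPM in KO (-1.09, SE 0.20). Liver WT replicate 1 stood apart in 2 marker lists. The 12 hepatocyte markers summed to 206500 CPM in it, with Alb at 152900, against 364400 to 415400 CPM in the other livers. The periportal hepatocyte genes were mixed in it. Cps1 was at 8169 CPM against 5010, 3839 and 5043 CPM in WT 2, KO 1 and KO 2, and Pck1 at 1998 CPM against 3320, 2134 and 3768 CPM. The 9 heart muscle markers summed to 29.3, 5.30, 1.89 and 2.02 CPM in WT 1, WT 2, KO 1 and KO 2, with Myl2 the most abundant in WT 1 at 10.9 CPM. The 5 tested had a median of -3.13 and none was called. Each had an unadjusted edgeR p under 0.05, a level whose share over all liver genes is not given here. The 5 fat cell markers tested were all below 0 (median -0.96), with Adipoq at 0 in 3 of the 4 livers and Lpl at 72.7 and 74.0 CPM in WT and 36.6 and 31.2 CPM in KO. Csad without liver WT replicate 1 had a log2 difference of 1.66 (SE 0.21). The part of these groups in the level of Csad was not tested, and fewer cells of a type cannot be told apart from less RNA per cell in whole organs.

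The genes whose log2 CPM was most like that of a member over the 20 libraries were found by Pearson's r, a description only, since the libraries fall into 5 organs and share depth and scaling. For Csad these were Cryz (0.922), Gm13855 (0.922) and Phldb2 (0.922), and for Cdo1 they were Gys2 (0.975), Gm5096 (0.965) and Egfr (0.964). For Ado they were Tfam (0.943), Trmt11 (0.923) and Ptrh2 (0.920), for Slc6a6 Dlg5 (0.960), Myo19 (0.915) and Wdr54 (0.892), for Slc6a13 Gm5424 (0.983), Ass1 (0.981) and Hpn (0.979), and for Baat Fads2 (0.965), Hpd (0.964) and Bhmt (0.959).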

How the data were processed

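Libraries were stranded mRNA-seq of whole organs. The authors trimmed reads with cutadapt, aligned them with HISAT2 2.1.0 to mm10 and counted them per gene with featureCounts 2.0.1 on Ensembl 102 exons of GRCm38; the deposited values are raw counts, and the command in the file header names no strand option, although the methods do. Counts were tested in R 4.3.3 with edgeR 4.0.16 (quasi-likelihood, robust; TMM; filterByExpr), per organ for genotype, over 16 libraries for the effect shared by or differing between the 4 organs other than liver, and over 20 libraries for 10 organ pairs. p-values were adjusted by Benjamini and Hochberg over all genes tested. Genes were called at an adjusted p under 0.1 and a fold change above 2, the threshold the methods name for DESeq2, which was run as an alternative (DESeq2 1.42.0). Standard errors follow from the F statistic. The sources used here print a human build for part of the alignment, while labels and coordinates are mouse.

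The members, the pathway and marker lists and the tests were chosen with earlier results of these data known. Named were the 7 members, list genes called in an organ, the gene of highest organ mean CPM in each pathway list and, per member, the 3 genes of highest r. Others named with a value were chosen after their values were seen. The values of 1 called marker gene are not reported here. Alternatives were no fold threshold, a stricter adjusted p of 0.05, RLE size factors, a replicate block, no filter, a filter of 10 counts per library, each library left out, WT groups only and 1 fit of 20 libraries; library totals without TMM factors were added after seeing the data. The Length column and counts were the columns used, and 0 count columns were left out. The fits were run on simulated data, and no outcome of that is given here. Same-numbered WT and KO libraries deviated together in small intestine (r = 0.57 of the replicate differences across genes) and heart (0.37), and less in kidney (0.13), liver (0.039) and spleen (0.0075); with 2 pairs an organ and no label that ties the numbers to a day or animal, they were not treated as pairs.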

Additional observations from a re-analysis of the deposited data

Results flagged for a closer look

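Within the 4 libraries of an organ, spleen WT replicate 2 lay far from the others for Cdo1, at 27.8 CPM, and for Baat, at 6.95 CPM. These were 2 of the 29 groups of 4 examined. Chance alone marks about 1 group in 20 where groups are independent, but both marks fell in 1 library, so the number marked decides nothing. The same library held 1.54% (median) of the WT liver level of 12 hepatocyte markers, and the other spleen libraries 0.00545% to 0.0738%. The part of liver transcripts in these values was not tested.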

How the results depend on the processing

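In liver 1 member was called, Csad, on which the set was chosen, so this count describes that choice and tests nothing. In 1 fit of 20 libraries 0 were called. The call was also absent without KO replicate 1 or KO replicate 2. Leaving out WT replicate 1 moved Cdo1 and Baat in spleen and Slc6a6 in kidney, as given above. Those fits hold 1 WT library, so calls in them are not counted here. A genotype effect differing between organs was called for 1 member with no filter on low counts, Slc6a13, which had 0 to 10 reads in small intestine, against 0. The share of all genes called in that unfiltered fit is not given here. Organ pairs called for Ado numbered 5 with no fold threshold and 1 by library totals, against 0, and those for Slc6a6 numbered 7 with no fold threshold and 4 by library totals, against 3. With the replicate number as a block, members called stayed at 0 in small intestine, spleen, kidney and heart, and in heart 1 member against 0 had an unadjusted edgeR p under 0.05, Cdo1 (-1.40, SE 0.35, edgeR adjusted p = 0.543). The liver count, 1 with the block, is a description, since the set was chosen on it; organ pairs called for Baat went from 9 to 8 with the block. Genes called in all changed more: in liver from 8 to 56 with DESeq2, 122 with no filter and 20 with the block, in spleen from 42 to 219, 313 and 43, in small intestine from 0 to 61 with DESeq2, and in heart from 0 to 13 with no filter and 6 with the block. The fit of 20 libraries called 0 genes in liver and 0 in spleen. Gadl1, at 9 reads in all, gave no fitted value under the filters.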
